A study of Mus musculus with 28 samples.

Results

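Genes of fetal liver and their repressors were followed through the livers of mice with diet-induced steatohepatitis treated with bile acid receptor agonists. They are H19, Igf2, Igf2bp3, Dlk1, Afp, Gpc3, Zbtb20 and Zhx2, 8 of the 47719 genes listed, and were selected by symbol. H19 was chosen for its rise at the low dose of tropifexor, so its values at that dose are a description and are not tested. The other genes were named with earlier results of these data known.

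RNA sequencing was done on liver of 28 male C57BL/6 mice of about 6 weeks at the start, in 7 groups of 4, with no transgene or mutation named in the labels. Tropifexor, an agonist of the bile acid receptor FXR without a bile acid structure, was given at 0.1 (low), 0.3 (mid) or 0.9 mg/kg (high). Obeticholic acid (OCA), a bile acid derivative that activates the same receptor, was given at 25 mg/kg. Both were dosed orally each day for 4 weeks. Before and during dosing the mice ate a high-fat feed, for 26 weeks up to the first dose, in which fat gave 40% of the calories and fructose made up 22% and cholesterol 2% of the weight. Each drug had its own vehicle group on that feed. Feed of the lean control group drew 10% of its calories from fat. The labels do not pair the doses with low, mid and high, which were taken in rising order. The values are FPKM (fragments scaled to transcript length and library size), with 1 value per group in each of the authors' 10 deposited tables and none per animal, so whether all 4 livers of a group share a level cannot be seen. A gene was called when its deposited Cuffdiff q, the p adjusted over the genes tested, was under 0.05. Standard errors (SE) of log2 fold changes were derived from the deposited p and are upper limits where p was at its smallest value, 5e-05. The liver label was checked on albumin (Alb), the main plasma protein of hepatocytes, which had 31052.5 FPKM in tropifexor vehicle and 55403 FPKM in lean control and was called in none of the tables.

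H19 and Igf2 are neighbours in an imprinted domain, in which H19, a long noncoding RNA, is made from the maternal copy and Igf2, a fetal growth factor, from the paternal one. Both are abundant in fetal liver and are shut down after birth together with Afp, the fetal counterpart of albumin, and Gpc3, a cell surface proteoglycan. Zhx2 and Zbtb20 are transcriptional repressors that take part in that shutdown in mice, Zhx2 acting on Afp, H19 and Gpc3 and Zbtb20 on Afp. Dlk1, a transmembrane protein of hepatoblasts, lies in another imprinted domain with the noncoding RNAs Meg3 and Rian, and Igf2bp3 is an oncofetal RNA-binding protein that binds Igf2 mRNA.

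H19 lies at chr7:142575529-142578143 on the minus strand (GRCm38, GENCODE annotation), and its transcript holds the microRNA miR-675. The hairpin is exonic to H19, at chr7:142577064-142577147, and is shown because it is the part of H19 with a product of its own. The sequences are from RefSeq (GRCm38.p6), 5′ to 3′. Capitals mark the mature arms in the hairpin and the seed, bases 2 to 8, in each arm.
Mir675 hairpin: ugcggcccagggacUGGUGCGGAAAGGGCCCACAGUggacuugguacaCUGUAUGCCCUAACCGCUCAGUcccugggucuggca
mmu-miR-675-5p: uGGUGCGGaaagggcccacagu
mmu-miR-675-3p: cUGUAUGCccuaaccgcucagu
The arms have different seeds, GGUGCGG and UGUAUGC. The Mir675 gene was not tested in any of the authors' 10 deposited tables and was listed at or next to 0 FPKM throughout, also where H19 was high. The libraries were made from poly(A) RNA, so mature miR-675 was not measured.

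H19 was higher in every drug group than in its vehicle. In the tables against vehicle, its level was 107 FPKM at the low dose against 1.78 FPKM in tropifexor vehicle, 7.91 FPKM at the mid dose against 1.56 FPKM in vehicle, and 7.41 FPKM at the high dose against 1.62 FPKM in vehicle. Thus the low dose stood far above the other doses, whose levels lay next to each other. At the low dose the log2 fold change of H19 over vehicle was 5.91 (SE at most 1.46) in the authors' deposited table, which ranked 3 from the top of 15827 tested genes with at least 0.1 FPKM in both groups. That is the comparison H19 was chosen on. At the doses it was not chosen on, it rose over vehicle by log2 fold changes of 2.34 (SE at most 0.58, q = 0.000361 in the authors' deposited table) at the mid dose and 2.19 (SE at most 0.54, q = 0.000396) at the high dose. OCA livers had 2.26 FPKM, against 1.07 FPKM in OCA vehicle, a log2 fold change of 1.08 (SE 0.32) with a deposited q of 0.0262, a call that is lost at q under 0.01 and with no filter on low values. With no filter, the untested genes enter the adjustment with a placeholder p, which can only remove calls. The 3 tropifexor comparisons share the same vehicle livers.

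H19 was also higher in each vehicle group, on the high-fat feed, than in lean control. Tropifexor vehicle had 1.56 FPKM against 0.312 FPKM in lean control, a log2 fold change of 2.32 (SE at most 0.57, deposited q = 0.000507). OCA vehicle had 1.001 FPKM against 0.311 FPKM in lean control, a log2 fold change of 1.69 (SE 0.56, deposited q = 0.0191), a call lost under the same settings. Lean liver was therefore the lowest of the 7 groups, at 0.289 to 0.326 FPKM across the 6 tables that hold it. Over lean control, H19 was 302-fold higher at the low dose (98.6 against 0.326 FPKM), 25.4-fold at the mid dose (7.32 against 0.289 FPKM), 22.7-fold at the high dose (6.81 against 0.301 FPKM) and 6.85-fold with OCA (2.10 against 0.306 FPKM). The mid, high and OCA values passed the test in the authors' deposited tables (q between 0.000346 and 0.000624). On a scale of log2(FPKM + 1) the change over lean control is 6.23 in place of 8.24 at the low dose, 2.69 in place of 4.66 at the mid dose, 2.59 in place of 4.50 at the high dose and 1.25 in place of 2.78 with OCA.

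**Figure D1:**
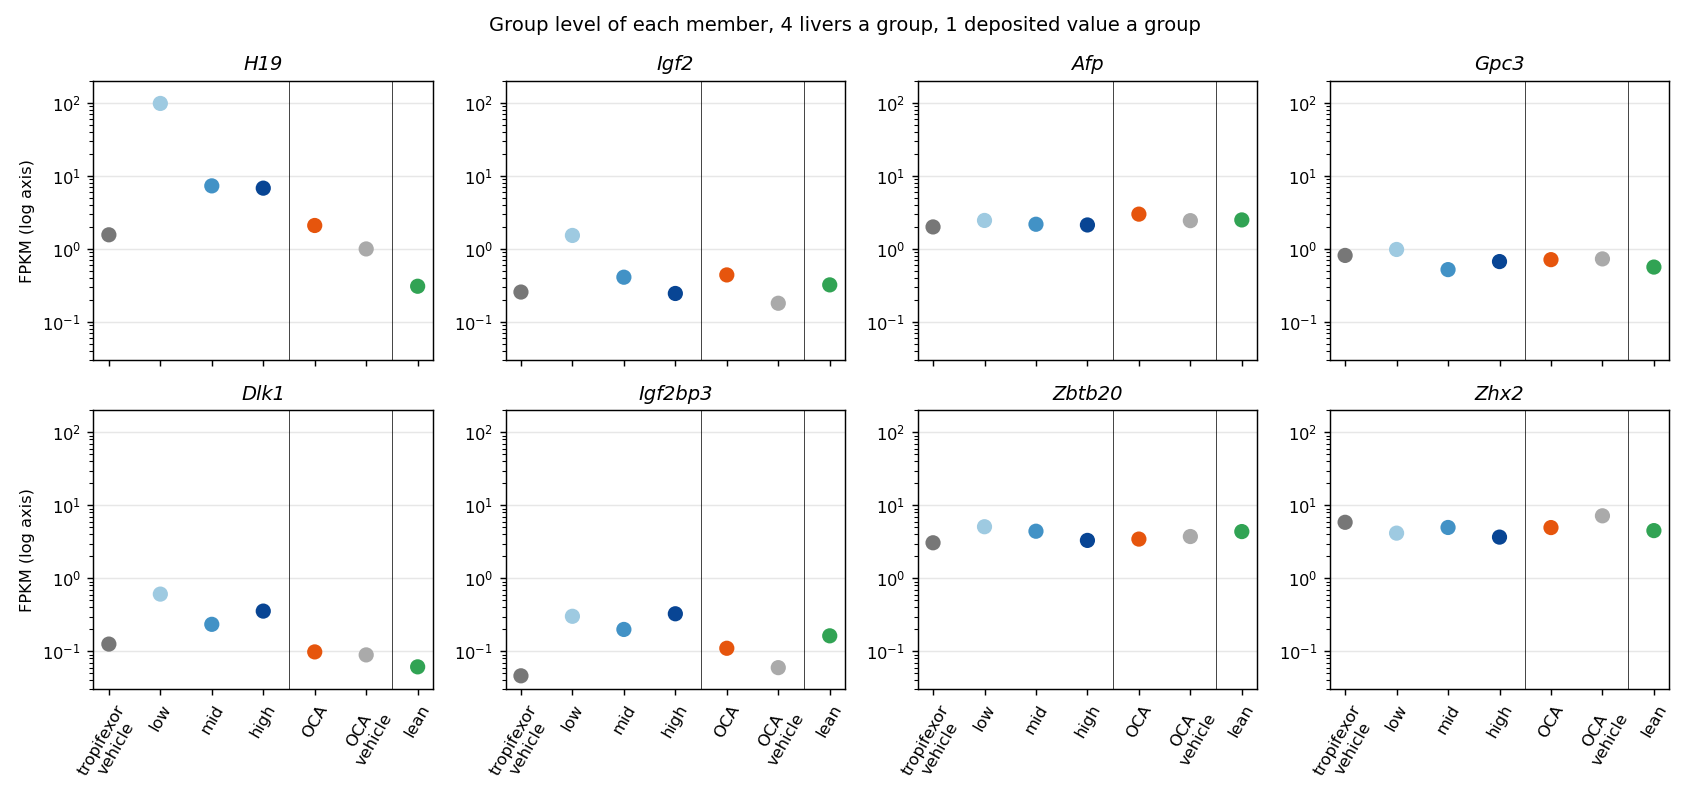
FPKM on a log axis for each of the 8 members in the 7 groups, 1 deposited value per group of 4 livers, from the tables against lean control (lean control is the median over those tables). H19 is near 98.6 FPKM at the low dose and between 0.308 and 7.32 FPKM in the other groups, while Afp, Zbtb20 and Zhx2 stay between 2.00 and 7.19 FPKM everywhere.

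Igf2 (chr7:142650766-142666816, minus strand), 72.6 kb from H19, rose at the low dose of tropifexor and passed the test in no other drug comparison. It had 1.66 FPKM at the low dose against 0.292 FPKM in vehicle, a log2 fold change of 2.51 (SE at most 0.62, q = 0.000968 in the authors' deposited table). Against lean control the low dose had 1.53 against 0.341 FPKM, a log2 fold change of 2.17 (SE at most 0.53, deposited q = 0.000426). The other doses were lower: 0.443 FPKM at the mid dose against 0.256 FPKM in vehicle (log2 fold change 0.79, SE 0.46, deposited q = 0.209), and 0.267 FPKM at the high dose against 0.266 FPKM in vehicle (0.01, SE 0.41, deposited q = 0.993). OCA livers had 0.474 FPKM against 0.192 FPKM in OCA vehicle, a log2 fold change of 1.30 (SE 0.45, deposited q = 0.0874). Of the diet effects on Igf2, neither passed the test: tropifexor vehicle had 0.257 against 0.326 FPKM in lean control (deposited q = 0.728) and OCA vehicle 0.180 against 0.324 FPKM (deposited q = 0.209). Igf2 levels are low, and the annotation places a longer read-through gene on the same strand over all but the end of Igf2, so its reads may be shared. On a scale of log2(FPKM + 1) the low-dose change over vehicle is 1.04 in place of 2.51.

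The difference between doses was tested as a difference of log2 fold changes. For Igf2 the low dose exceeded the high dose by 2.501 (95% interval -1.21 to 6.21), which did not pass with the error from the deposited test statistic. That error is wider than the one behind the deposited p, by a factor of 2.03 to 2.05. Intervals built on it are wider than the deposited p would give. With the error from the gene's own deposited Cuffdiff p, an alternative chosen after seeing the data, the interval was 1.05 to 3.95 and the difference passed. The low dose exceeded the mid dose by 1.71 for Igf2 (interval -1.92 to 5.35, not called). For H19 the mid dose exceeded the high dose by 0.15 (interval -1.28 to 1.58) and the high dose exceeded OCA by 1.11 (interval -0.61 to 2.83). Neither passed, and these intervals do not show that the changes are alike. With the rescaled errors the interval of high dose less OCA was 0.27 to 1.95 for H19, not called after adjustment. That of mid less high dose was -0.55 to 0.86, not called either. For H19 the low dose exceeded the high dose by 3.72 and the mid dose by 3.56, which is a description. The tropifexor and OCA doses differ in mg/kg. No other member passed in any of the 5 differences with the error from the test statistic, and none had an unadjusted p under 0.05 there. Over all genes, 0.278% passed for low against high dose, 0.423% for low against mid, 0.319% for mid against high, 1.69% for high-dose tropifexor against OCA, and 0.0985% for the change of tropifexor vehicle over lean control against that of OCA vehicle.

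Igf2bp3 (chr6:49085223-49214957, minus strand) was close to the lower limit of what was tested. It had 0.356 FPKM at the high dose against 0.0476 FPKM in vehicle, a log2 fold change of 2.90 (SE 1.08) with q = 0.0320 in the authors' deposited table, its only call. That call is lost at q under 0.01, with no filter and with a minimum of 1 FPKM, and the change is 1.63 with a pseudocount of 0.1 and 0.37 with one of 1. At the low dose it had 0.328 against 0.0522 FPKM in vehicle (2.65, SE 1.04, deposited q = 0.0843), and at the mid dose, where it was not tested, 0.216 against 0.0459 FPKM. Lean liver had 0.153 to 0.173 FPKM, above both vehicle groups, which had 0.0462 FPKM (tropifexor vehicle) and 0.0598 FPKM (OCA vehicle) in their tables with lean control. No comparison of Igf2bp3 with lean control passed. Its relative Igf2bp2 fell at all 3 doses, to 0.934 against 2.00 FPKM at the low, 0.657 against 1.75 FPKM at the mid and 0.852 against 1.82 FPKM at the high dose, each against vehicle, with deposited q of 0.00957, 0.00184 and 0.0341.

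Dlk1 (chr12:109452823-109463336, plus strand) was under 0.7 FPKM in every group and passed no test. It had 0.660 FPKM at the low dose against 0.143 FPKM in vehicle (log2 fold change 2.202, SE 0.83, q = 0.0639 in the authors' deposited table) and 0.608 against 0.0648 FPKM in lean control (3.23, SE 1.32, deposited q = 0.0574). The high dose had 0.387 against 0.130 FPKM in vehicle (1.57, SE 0.85, deposited q = 0.184). In the other 6 tables it was not tested; there the mid dose had 0.253 against 0.125 FPKM in vehicle and OCA livers 0.106 against 0.0955 FPKM in OCA vehicle. Dlk1 and Igf2bp3 were tested only in the 4 tables with the low or the high dose, where they were highest, so no median is given over the members tested.

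The noncoding RNAs of the Dlk1 domain did pass. Meg3 had 15.6 FPKM at the low dose against 1.01 FPKM in vehicle, a log2 fold change of 3.95 (SE at most 0.97, q = 0.000968 in the authors' deposited table). At the mid dose Meg3 had 1.28 against 0.881 FPKM in vehicle and was not called (deposited q = 0.285). At the high dose it had 3.76 against 0.919 FPKM in vehicle (2.03, SE at most 0.50, deposited q = 0.000396). Rian rose at all 3 doses, to 5.71 against 0.333 FPKM at the low, 0.668 against 0.291 FPKM at the mid and 1.13 against 0.303 FPKM at the high dose, each against vehicle. In OCA livers Meg3 had 0.657 against 0.626 FPKM in OCA vehicle and Rian 0.353 against 0.188 FPKM, neither called. Vehicle against lean control went the other way for these genes: Rian was lower in both vehicle groups than in the lean group (log2 fold changes of -1.04 and -1.76 in tropifexor and OCA vehicle, deposited q of 0.0418 and 0.000588) and Meg3 in OCA vehicle (-1.37, deposited q = 0.000588). Other genes are annotated on the same strand within both Meg3 and Rian, so reads may be shared. In the tropifexor groups the low dose had the highest values of Dlk1, Meg3 and Rian. The change at the low dose less that at the high dose was 1.91 for Meg3 (95% interval -0.40 to 4.23), 0.63 for Dlk1 (-7.03 to 8.29) and, for Rian, between -1.78 and 6.19, none called with the error from the test statistic. Low less mid was 3.41 for Meg3 (1.03 to 5.79) and 2.90 for Rian (-1.12 to 6.92), neither called after adjustment. With errors rescaled over all genes and with errors from each gene's own p, Meg3 passed in both differences and Rian in low less mid.

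**Figure D2:**
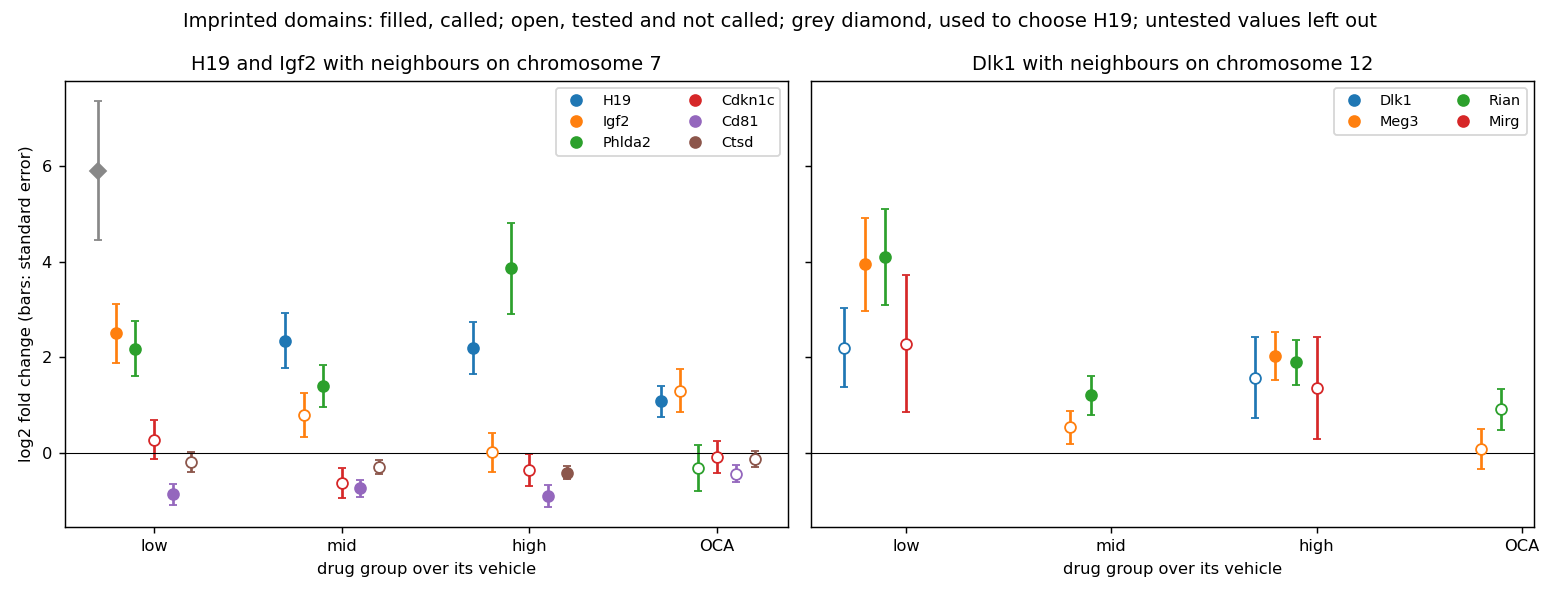
Log2 fold change of each drug group over its vehicle for tested genes of the H19 and Igf2 domain (left) and the Dlk1 domain (right), with standard errors that are upper limits where p was at its smallest value. Filled points passed the test; the grey diamond is H19 at the low dose, the value it was chosen on and a description. H19 (5.91), Igf2 (2.51), Meg3 (3.95) and Rian (4.10) are highest at the low dose, Phlda2 (3.87) at the high dose, and Cd81 lies below 0 at all 3 doses.

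Of 22 genes on distal chromosome 7 around H19 and Igf2, 13 were tested at the low dose, of which 1 rose and 1 fell, where 11.2% of all tested genes were called, with a median log2 fold change of 0.24 against -0.00056 over all tested genes. At the mid dose 1 rose and 3 fell of 12 (27.5% of all called), and at the high dose 2 rose and 4 fell of 12 (25.4% of all called). The median log2 fold change was -0.28 at the mid dose, -0.15 at the high dose and -0.086 with OCA. Each median covers the genes tested in that comparison, which were not the same throughout. Phlda2, an imprinted growth restraint of placenta, rose at each dose: to 3.13 against 0.692 FPKM at the low, 1.59 against 0.604 FPKM at the mid and 9.18 against 0.629 FPKM at the high dose, each against vehicle (deposited q of 0.00258, 0.00825 and 0.000396). Its change at the low dose less that at the high dose was -1.69 (95% interval -4.50 to 1.12), which was not called, and mid less high was -2.47 (-5.14 to 0.19), called only with the rescaled errors and those from each gene's own p. Cd81, a membrane tetraspanin, fell to 110 against 202 FPKM, 105 against 177 FPKM and 98.2 against 184 FPKM at the low, mid and high dose against vehicle. Cdkn1c, an imprinted cell cycle inhibitor of the same region, passed in no drug comparison against vehicle. With OCA, Kcnq1 rose (1.43 against 0.686 FPKM in OCA vehicle, deposited q = 0.0451) and no other gene of the region passed, where 4.04% of all tested genes were called.

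Of 24 genes of an imprinted gene network, which is reported to be co-regulated in mouse growth, 19 were tested at the low dose and Rian and Meg3 rose while Snrpn fell (median log2 fold change 0.19, with 11.2% of all tested genes called). At the mid dose 2 rose (Rian and Ppp1r9a) and 5 fell of 18, with 27.5% of all called, and at the high dose 3 rose (Meg3, Rian and Asb4) and 3 fell (Peg3, Sgce and Dcn) of 19, with 25.4% of all called. With OCA none of 17 passed in the authors' deposited Cuffdiff table. The median log2 fold change was -0.17 at the mid dose, 0.0075 at the high dose and 0.061 with OCA. Here too the genes tested were not the same throughout. Among the falls, Peg3 had 0.157 against 0.430 FPKM in vehicle at the mid dose and 0.175 against 0.447 FPKM at the high dose.

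Promoters of Igf2 and Meg3, which rose at the low dose, and of Afp, which was not called there, are shown as examples; those of Zbtb20, Rian and Phlda2, which also rose, are not printed. Of the 8 members all but H19 and Zhx2 had promoters in the RefSeq table (GRCm38.p6), 9 in all since Igf2 has several, of which the one with the half-site is shown. Meg3 is shown by the promoter that holds TATAAA, and another, at chr12:109545148-109545447, holds a half-site. Each covers 300 bases around a start, mostly upstream, 5′ to 3′ on the gene's strand. Capitals mark AGGTCA, the half-site of nuclear receptors, on either strand, or TATAAA on the gene's strand.
Igf2, chr7:142666767-142667066, minus strand: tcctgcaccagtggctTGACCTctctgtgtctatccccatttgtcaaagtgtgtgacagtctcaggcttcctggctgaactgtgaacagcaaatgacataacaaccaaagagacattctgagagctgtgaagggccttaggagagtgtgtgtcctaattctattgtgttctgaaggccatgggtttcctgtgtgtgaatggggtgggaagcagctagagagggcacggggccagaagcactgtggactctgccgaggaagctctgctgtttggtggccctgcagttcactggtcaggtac
Meg3, chr12:109540746-109541045, plus strand: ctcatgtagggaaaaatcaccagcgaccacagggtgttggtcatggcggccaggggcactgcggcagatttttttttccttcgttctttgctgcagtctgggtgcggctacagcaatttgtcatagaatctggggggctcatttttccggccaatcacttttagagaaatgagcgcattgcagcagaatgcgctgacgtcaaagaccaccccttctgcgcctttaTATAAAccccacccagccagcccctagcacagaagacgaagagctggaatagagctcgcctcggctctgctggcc
Afp, chr5:90490464-90490763, plus strand: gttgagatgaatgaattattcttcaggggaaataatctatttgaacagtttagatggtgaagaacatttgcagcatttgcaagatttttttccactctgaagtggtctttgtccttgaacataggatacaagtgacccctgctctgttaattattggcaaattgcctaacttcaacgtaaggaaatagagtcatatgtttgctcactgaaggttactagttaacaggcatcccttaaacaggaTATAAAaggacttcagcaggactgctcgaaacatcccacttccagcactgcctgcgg
The half-site stood in 1 of the 9 member promoters, against 16.3% of 32851 promoters of that length, and TATAAA in 1 of 9, against 8.32%. The inverted repeat of the half-site with a spacer of 1 base, the classic element of FXR, was in none of the 9 and in 3 of the 32851. These matches are a description of letters in the window.

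Afp (chr5:90490737-90508907, plus strand) and Gpc3 (chrX:52272426-52613950, minus strand), the classic oncofetal liver markers, were called in none of the authors' 10 deposited Cuffdiff tables, and at an unadjusted p under 0.05 only Gpc3 was, in 3 of them. Afp had 2.68 against 2.28 FPKM at the low dose, 2.36 against 1.99 FPKM at the mid dose and 2.32 against 2.07 FPKM at the high dose, each against vehicle. OCA livers had 3.23 FPKM of Afp against 2.60 FPKM in OCA vehicle, the highest group level (log2 fold change 0.31, SE 0.24, deposited q = 0.871). The low-dose change of Afp was 0.23 (SE 0.37), beside 5.91 for H19. Gpc3 had 1.07 against 0.928 FPKM at the low dose, 0.563 against 0.811 FPKM at the mid dose and 0.731 against 0.844 FPKM at the high dose, each against vehicle. Its largest values were 0.72 (SE 0.31, deposited q = 0.0747) for the low dose over lean control and -0.53 (SE 0.23, deposited q = 0.0780) for the mid dose over vehicle. An antisense gene, Gm43449, lies over part of Afp and was listed at 2.37 to 6.16 FPKM in the tables against vehicle for the drug groups; no source used here says if the counting was by strand, so reads of the pair may be mixed.

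Of 6 genes of the albumin family and next to Afp, all tested, Ankrd17 rose at each tropifexor dose (13.2 against 9.32 FPKM in vehicle at the low dose) and Afm, afamin, at the mid dose (107 against 83.0 FPKM in vehicle). With OCA none passed in the authors' deposited Cuffdiff table. Afm and Rassf6 were lower in both vehicle groups: Afm had 83.4 FPKM in tropifexor vehicle and 92.7 FPKM in OCA vehicle, against 162 and 161 FPKM in lean control in those tables.

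Zbtb20 (chr16:42875881-43642602, plus strand), the repressor of Afp, was lower than in lean control in one vehicle group and rose at lower tropifexor doses. Tropifexor vehicle had 3.07 FPKM against 4.43 FPKM in lean control, a log2 fold change of -0.53 (SE 0.16, q = 0.00648 in the authors' deposited table). OCA vehicle had 3.74 against 4.40 FPKM in lean control (-0.23, SE 0.15, deposited q = 0.336). The low dose had 5.55 against 3.496 FPKM in vehicle (0.67, SE 0.18, deposited q = 0.00472) and the mid dose 4.78 against 3.06 FPKM (0.65, SE at most 0.16, deposited q = 0.000361). The high dose had 3.60 against 3.18 FPKM in vehicle (0.18, SE 0.15, deposited q = 0.443) and stayed below lean control, at 3.31 against 4.27 FPKM (-0.37, SE 0.14, deposited q = 0.0278). The low and mid doses were near lean control, at 5.10 against 4.63 FPKM and 4.42 against 4.10 FPKM, neither called. OCA livers had 3.71 against 3.99 FPKM in OCA vehicle (deposited q = 0.999). Zbtb20 and H19 were thus both higher over vehicle at the low and mid doses.

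Zhx2 (chr15:57694665-57839832, plus strand), the postnatal repressor of Afp and H19, passed in none of the authors' 10 deposited Cuffdiff tables and had an unadjusted p over 0.05 in all of them. It had 4.54 against 6.67 FPKM at the low dose (log2 fold change -0.56, SE 0.42), 5.38 against 5.83 FPKM at the mid dose (-0.12, SE 0.43) and 3.99 against 6.06 FPKM at the high dose (-0.60, SE 0.40), each against vehicle. OCA livers had 5.34 against 7.65 FPKM in OCA vehicle (-0.52, SE 0.42). Both vehicle groups were nominally above lean control, at 5.86 against 4.56 FPKM and 7.19 against 4.54 FPKM for tropifexor and OCA vehicle. Its errors are wide for its level, and a fall of the size seen at the low and high doses cannot be told from none.

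**Figure D3:**
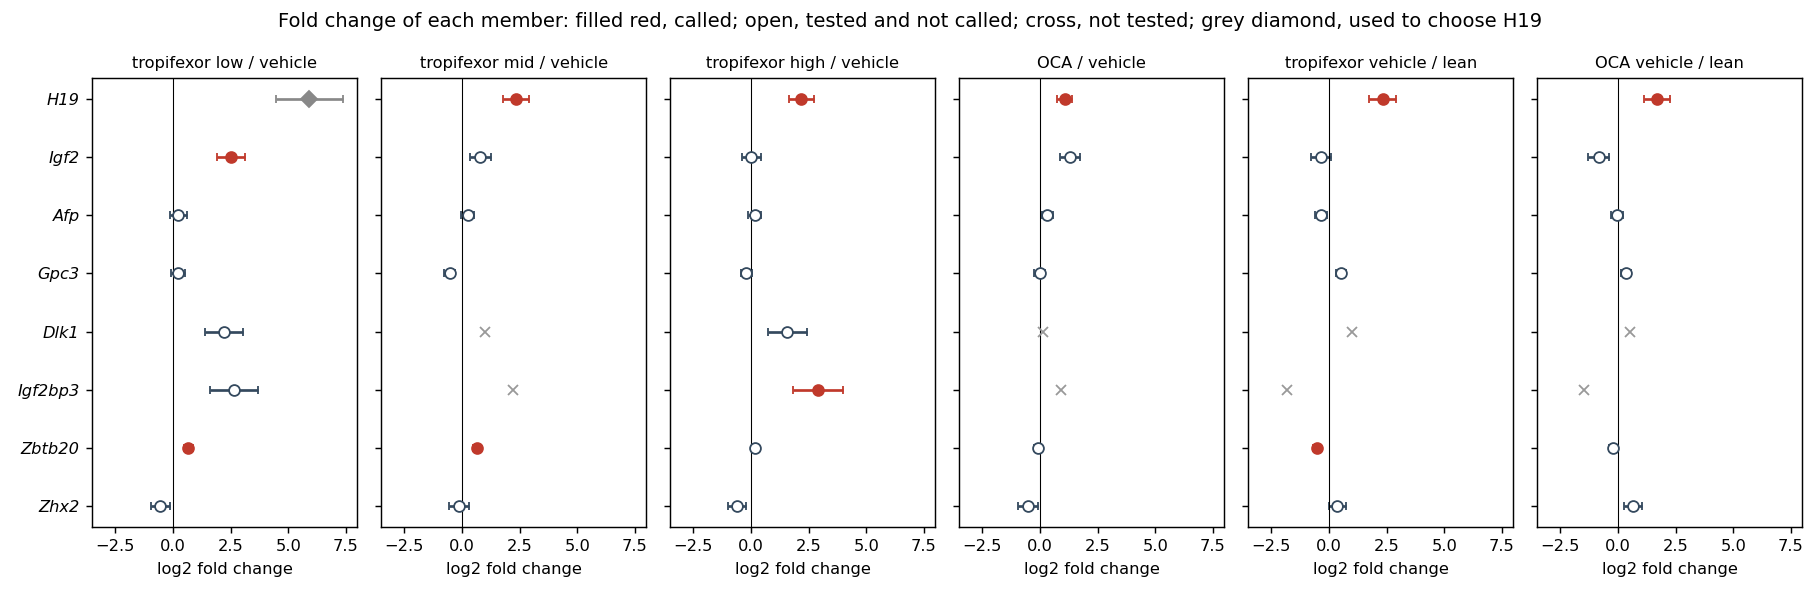
Log2 fold change of the 8 members in the drug groups over vehicle and the vehicle groups over lean control, with standard errors derived from the deposited p (upper limits where p was at its smallest value). Filled red points passed the test, open points did not and crosses were not tested; the grey diamond is H19 at the low dose (5.91), the value it was chosen on. H19 is filled in the other 5 panels, and Afp, Gpc3, Dlk1 and Zhx2 in none.

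Counted over the members, the shares called were set against those of all tested genes. At the low dose against vehicle 2 of the 7 members other than H19 rose, where 11.2% of 16144 tested genes were called. At the mid dose 2 of 6 tested members were called, against 27.5% of all genes, and at the high dose 2 of 8, against 25.4%. With OCA 1 of 6 was called, against 4.04%. For vehicle against lean control 2 of 6 were called in tropifexor vehicle, against 20.6%, and 1 of 6 in OCA vehicle, against 18.0%. Against lean control 1 of the 7 members other than H19 was called at the low dose, against 23.8%, 1 of 6 at the mid dose, against 23.1%, 2 of 8 at the high dose, against 27.3%, and 1 of 6 with OCA, against 16.8%. With so few members these shares rest on single calls, and nothing particular to the members as a group is read from them.

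**Figure D4:**
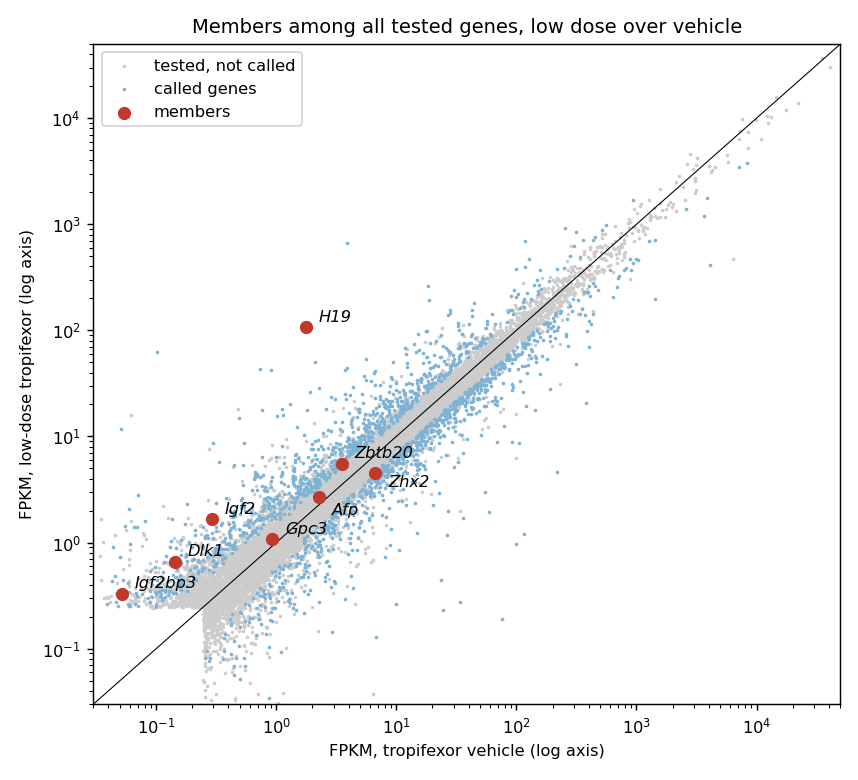
FPKM at the low tropifexor dose (vertical) against vehicle (horizontal) for tested genes over 0.03 FPKM in both groups, on log axes, with the line of equal levels. Blue points passed the test and red points are the members: H19 (107 against 1.78 FPKM), Igf2, Dlk1 and Igf2bp3 lie above the line, and Afp and Gpc3 near it.

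Of 18 transcription factors reported to control Afp, H19 or hepatocyte identity after birth, all tested, 1 rose and 6 fell at the low dose, 3 rose and 7 fell at the mid dose, and 3 rose and 9 fell at the high dose, with median log2 fold changes of -0.41, -0.16 and -0.45. Of all tested genes 11.2%, 27.5% and 25.4% were called at these doses, with medians of -0.00056, -0.0056 and -0.050. Nr0b2 (SHP), the corepressor that FXR induces, rose with every drug: to 118 FPKM at the low, 166 at the mid and 182 at the high dose, against 32.4, 28.3 and 29.5 FPKM in vehicle, and to 73.3 FPKM with OCA against 43.5 FPKM in OCA vehicle. Nr1h4, which encodes FXR, fell to 23.8 against 66.8 FPKM at the low, 24.1 against 58.4 FPKM at the mid and 18.7 against 60.8 FPKM at the high dose, each against vehicle. Tbx3, Cebpa, Foxa1 and Foxa3 fell at all 3 doses. Onecut1 also fell at all 3 doses, but the vehicle groups stood apart for it: tropifexor vehicle was above lean control (14.6 against 8.11 FPKM) and OCA vehicle below it (2.72 against 8.07 FPKM). With OCA, Onecut1 and Nr0b2 rose and no other factor of the list passed.

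Genes reported as targets of Zhx2 in adult mouse liver moved in both directions. Of 14, 5 rose and 6 fell at the low dose, 7 rose and 5 fell of 13 at the mid dose, 6 rose and 4 fell of 13 at the high dose, and 3 rose and 4 fell of 13 with OCA. The shares called over all tested genes were 11.2%, 27.5%, 25.4% and 4.04% in the same comparisons. Slco1a1, a sinusoidal transporter, fell at all 3 doses and with OCA, to 1.19 against 26.5 FPKM in vehicle at the low dose. Cyp2a4, a steroid hydroxylase, rose at the low dose (18.1 against 1.11 FPKM in vehicle) and fell at the mid dose (0.228 against 0.978 FPKM in vehicle). Lpl, a lipase of fetal liver, fell at the mid and high doses and with OCA and was not called at the low dose (37.8 against 40.2 FPKM in vehicle). All called values are from the authors' deposited tables.

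The 13 genes listed for the IGF pathway were all tested. They are receptors and binding proteins together with Igf1, Irs1 and Irs2. Igfbp2, a binding protein that is high in fetal liver, rose at each dose: 925 against 252 FPKM at the low, 726 against 220 FPKM at the mid and 591 against 229 FPKM at the high dose, each against vehicle (deposited q of 0.000968, 0.000361 and 0.000396). Igfbp1 rose at the low dose, with 37.9 against 18.9 FPKM in vehicle, and fell at the mid dose, with 3.77 against 16.6 FPKM, and at the high dose, with 3.71 against 17.2 FPKM. Igfbp3 fell at all 3 doses and with OCA (11.6 against 15.5 FPKM in OCA vehicle, deposited q = 0.0201). The receptors Igf1r, Igf2r and Insr were called at no dose and not with OCA, in the authors' deposited Cuffdiff tables. In all, 2 rose and 1 fell at the low dose (11.2% of all tested genes called), 2 rose and 4 fell at the mid dose (27.5%), 2 rose and 4 fell at the high dose (25.4%) and 1 fell with OCA (4.04%). At the mid and high doses Irs1 was the gene that rose beside Igfbp2.

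Other fetal liver and oncofetal genes were a mixed group in which many members were higher on the high-fat feed with vehicle than in lean livers. Of 32, 14 of 22 tested rose and none fell in tropifexor vehicle against lean control, and 12 of 21 rose in OCA vehicle, where 20.6% and 18.0% of all tested genes were called in either direction, with median log2 fold changes of 1.12 and 1.01 (all tested genes 0.011 and 0.019). At the low dose 11 rose and 2 fell of 24, at the mid dose 4 rose and 12 fell of 22, and at the high dose 7 rose and 9 fell of 22, each against vehicle, where 11.2%, 27.5% and 25.4% of all genes were called. The medians were 0.46, -0.62 and -0.23. The medians of this list, also those against lean control, cover the genes tested in each comparison, which were not the same. A gene tested only where it was higher can raise a median. With OCA 2 rose and 2 fell of 20, with 4.04% of all called. Gsta1, Bex4, Prom1 and Cldn6 rose most at the low dose: Prom1, a progenitor surface marker, had 6.63 against 1.44 FPKM in vehicle, and Cldn6, an embryonic claudin, 1.76 against 0.435 FPKM. At the high dose Cldn6 had 6.65 against 0.397 FPKM in vehicle. Lpl, Hk2, Peg3 and Pkm fell most at the mid dose, among them Hk2, the hexokinase of fetal liver, with 0.961 against 3.10 FPKM in vehicle. Differences between the doses were not tested for these genes.

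The 6 genes with the group pattern most like that of H19 were found by a correlation. Over the 7 group levels on the log2 scale (each group over lean control, lean at 0), among 5053 other genes that were tested in all 6 tables with lean control and spanned at least 1 log2 unit, they were Gm20703 (Pearson r = 0.99), Ppp3cc (0.99), Ifit3b (0.98), Emp2 (0.98), Chmp4c (0.98) and Sparcl1 (0.98). These are descriptions over 7 points that share the lean livers. Without the low dose r was 0.94 to 0.99 for the 6. Gm20703, a long intergenic RNA gene at chr17:70834664-70836044, was at 2.44 over lean control at the low, 1.49 at the mid and 1.43 at the high dose. Among the other members only Igf2 met that rule, with r = 0.78. This r includes the low dose that H19 was chosen on, and r without it was not computed for Igf2. Over lean control the log2 fold change of Igf2 was 0.44 at the mid and -0.35 at the high dose, where H19 had 4.66 and 4.50.

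Markers of other cells moved with the low dose too. Of 9 cholangiocyte markers, 8 were tested at the low dose and 5 rose (Epcam, Muc1, Krt19, Sox9 and Spp1) while Onecut1 fell; 11.2% of all tested genes were called. The summed level was 322 against 215 FPKM in vehicle, of which Spp1, a secreted phosphoprotein also made by macrophages, had 292 against 188 FPKM. At the mid dose none rose and 3 fell of 7 (76.1 against 188 FPKM in vehicle, Spp1 65.7 against 165 FPKM). At the high dose Muc1 rose and 2 fell of 7 (122 against 196 FPKM, Spp1 108 against 172 FPKM). With OCA 3 rose of 7 (225 against 143 FPKM in OCA vehicle, Spp1 198 against 130 FPKM). The rises with OCA were of Onecut1, Spp1 and Epcam, and Onecut1 was lower in OCA vehicle than in lean control. Of all tested genes 27.5%, 25.4% and 4.04% were called at the mid dose, the high dose and with OCA. Krt19, the defining keratin of bile ducts, had 6.41 against 2.75 FPKM at the low dose, 1.80 against 2.41 FPKM at the mid and 3.03 against 2.51 FPKM at the high dose, each against vehicle. The part of these cells in the low-dose level of H19 was not tested. In bulk RNA, more cells of a type and more RNA per cell cannot be told apart.

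Of 7 mesothelial markers, 2 rose at the low dose (Lrrn4 and Krt8, summed 253 against 164 FPKM in vehicle, nearly all from Krt8). Lrrn4, a surface protein of mesothelium, also rose at the mid and high doses, where Gpm6a, another marker of this list, fell. The sum was 136 against 143 FPKM at the mid dose, 156 against 149 FPKM at the high dose and 161 against 134 FPKM with OCA. Stellate cell and fibroblast markers had 0 of 12 higher and 5 lower at the low dose (394 against 418 FPKM in vehicle), 11 lower at the mid (146 against 366 FPKM) and 10 lower at the high dose (183 against 380.5 FPKM), while with OCA 1 rose (309 against 343 FPKM). At the low dose Dcn, which was not called, made up 285 of the 394 FPKM, where the highest marker in vehicle had 210 FPKM. Of 9 macrophage markers 1, 7, 5 and 5 fell at the low, mid and high dose and with OCA. For this and the other lists here, the shares called over all tested genes were 11.2%, 27.5%, 25.4% and 4.04% in the same comparisons. Of 8 markers of dividing cells none passed at the low dose in the authors' deposited Cuffdiff table (14.1 against 13.7 FPKM in vehicle), 6 fell at the mid and 6 at the high dose, and 2 rose with OCA. Erythroid and fetal blood markers summed to 252 against 335 FPKM at the low dose, 356 against 293 FPKM at the mid dose, 346 against 305 FPKM at the high dose and 361 against 369 FPKM with OCA, each against vehicle, with at most 1 called. Of 7 endothelial markers none rose and 1, 4, 4 and 2 fell at the low, mid and high dose and with OCA. Of 7 hepatocyte markers 3, 2 and 3 fell at the low, mid and high dose and none was called with OCA. Cps1 rose at the mid and high doses. In tropifexor vehicle 6 of the 7 were lower than in lean control, and in OCA vehicle 1 was.

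Among markers of neighbouring or stray tissue, those of muscle and adrenal gland were low. Cfd of the adipose list and Cela1 of the pancreas list were higher in some groups. Of 9 muscle markers 6 or 7 were under 0.1 FPKM in both groups of each drug comparison, and the list summed to 5.73 against 4.69 FPKM at the low dose. The 8 adrenal markers summed to 0.823 against 0.747 FPKM at the low dose, with 7 of 8 under 0.1 FPKM. The 7 pancreas markers summed to 9.25 against 9.07 FPKM, with 5 under 0.1 FPKM. Adipose markers summed to 0.404 against 34.2 FPKM at the low dose, where Cfd, which fell, had 0.276 against 34.1 FPKM. Each of these is low dose against vehicle. Only 2 muscle, 1 adrenal and 1 pancreas marker were tested there by the authors' deposited Cuffdiff test. None was called, and 1 muscle marker had an unadjusted p under 0.05. With so few tested, the absence of calls says little.

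**Figure D5:**
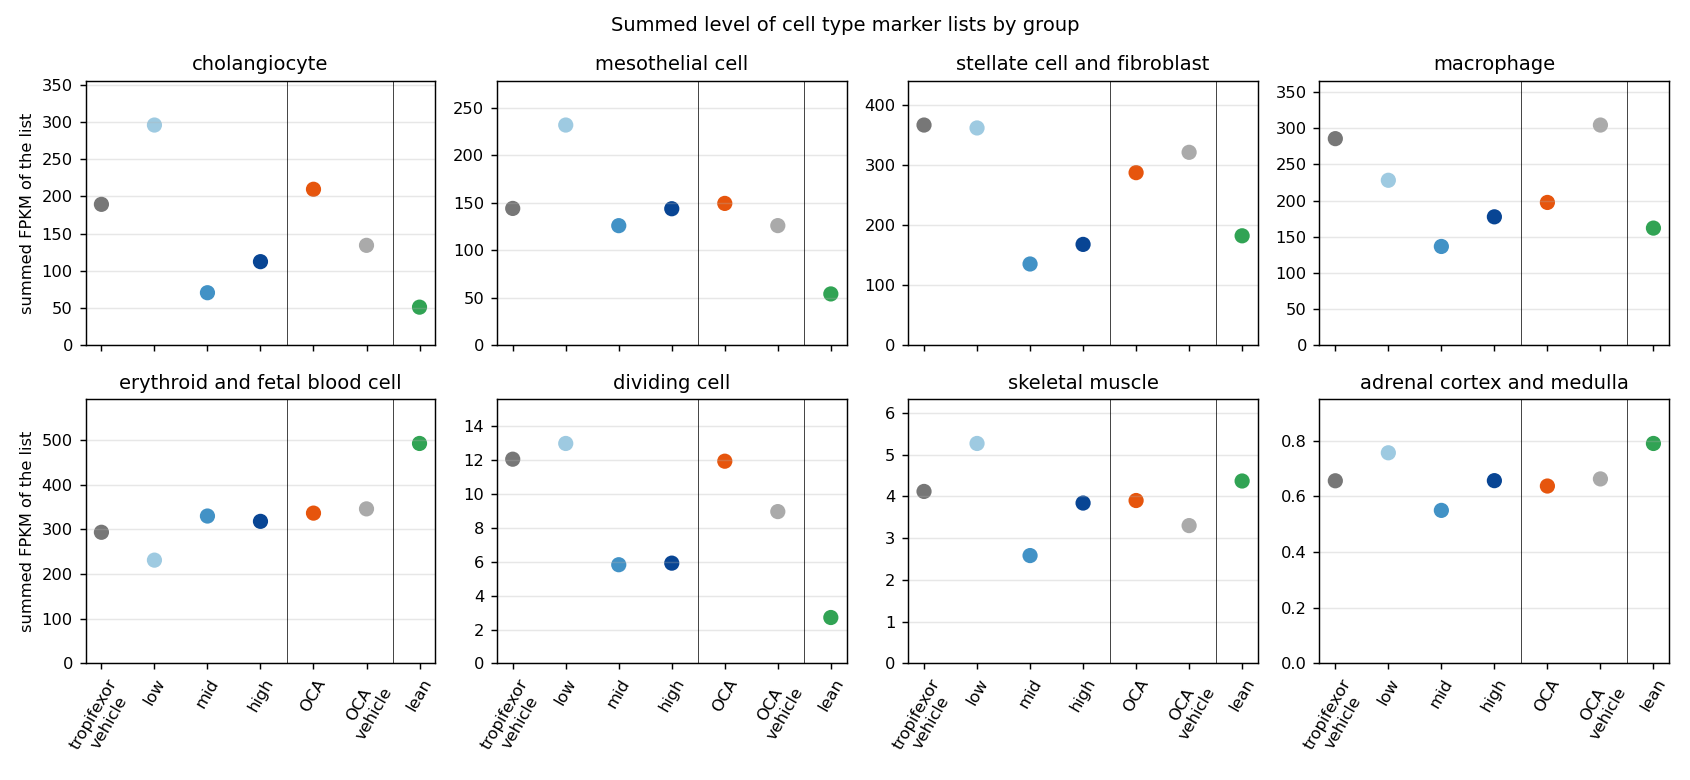
Summed FPKM of 8 lists of cell type markers in the 7 groups, from the tables against lean control, 1 value per group of 4 livers. The cholangiocyte and mesothelial sums are highest at the low dose. There the cholangiocyte sum comes mostly from Spp1 (268 of 296 FPKM) and the mesothelial sum nearly all from Krt8 (227 of 232 FPKM). The stellate cell and fibroblast sum at the low dose is mostly Dcn (262 of 362 FPKM). The muscle and adrenal sums stay under 6 and 1 FPKM in every group.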

How the data were processed

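Per the labels' protocols, frozen liver was taken up in Trizol and sequenced from TruSeq Stranded mRNA libraries. The submitters' processing notes list bcl2fastq, STAR 2.5.1b, Cuffnorm, Cufflinks 2.2.1, Cuffdiff and GRCm38, with no roles and no word on strand in counting. The FPKM values are the authors' deposited group values, 1 per group in each of 10 pairwise Cuffdiff tables, per the file headers, and each table is scaled separately. The deposited log2 fold change and test statistic were used as a score, and the deposited p-value and q-value are the authors' Cuffdiff output; q was checked to be the Benjamini-Hochberg adjustment over genes with status OK. Depth is unknown, and without values per animal no exact test or replicate spread could be had. Nothing says how the 4 animals of a group were housed or sampled.

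Members and gene lists were chosen with earlier results of these data known. All members are reported in each comparison, with counts for each list and up to 4 called genes of the largest fold change; others were named after their values were seen. One gene of a list is not reported here by name. The 6 genes most like H19 were named by Pearson r. Vehicle groups were read from sample titles, although their treatment field names the drug. A standard error is the fold change over the normal z of its p. The error from the test statistic was wider, by a factor over all genes of 2.03 to 2.05 in the tables. Differences of changes used that wider error, with variances added, a normal p and Benjamini-Hochberg adjustment. This step was run on simulated data, with noise drawn from the narrower error of the deposited p and independently for each change. The simulation therefore does not show how the test behaves where a vehicle group is shared. Adding variances makes the error too wide where groups are shared. Alternatives were a stricter q, an FPKM minimum of 1, no filter, pseudocounts of 0.1 and 1, median centring, a route through lean control, rescaled errors, and errors from each gene's own p, the last chosen after seeing the data. With no filter, untested genes kept the placeholder p they were listed with, so no further gene was tested. Positions are from a GENCODE annotation of GRCm38. Python 3.11.15, pandas 2.3.3, numpy 2.4.6, scipy 1.17.1 and matplotlib 3.10.9 were used.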

Additional observations from a re-analysis of the deposited data

How the results depend on the processing

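Under a stricter q of 0.01, the members called were 0 in OCA vehicle over lean control, 0 with OCA over its vehicle, 1 at the high dose over vehicle and 1 at the high dose over lean control. With no filter on low values they were 0, 0, 1 and 1 in the same comparisons. The untested genes then add only a placeholder p to the adjustment, so this setting can only lose calls. With at least 1 FPKM in either group, 1 was called at the high dose over vehicle, since Igf2bp3 is then left out. The calls lost are those of H19 in OCA vehicle over lean control and in OCA over its vehicle, and at the high dose Igf2bp3 over vehicle and Zbtb20 over lean control. Over all genes, q under 0.01 left 368 with OCA over its vehicle in place of 634, and 1181 at the low dose over vehicle in place of 1813. For the differences, errors from each gene's own deposited p, chosen after seeing the data, gave 1 member for low against high dose (Igf2) and 0 in the other 4; rescaled errors gave 0 in all 5. All-gene counts depended strongly on that error: rescaled and own-p errors gave 870 and 876 in place of 43 for low against high, 1577 and 1615 in place of 65 for low against mid, 357 and 305 in place of 49 for mid against high, 1741 and 1737 in place of 257 for high tropifexor against OCA, and 58 and 31 in place of 15 for the vehicle groups. No called fold change of a member reversed; 2 of 68 moved by more than their error with a pseudocount of 0.1, 21 of 68 with a pseudocount of 1, 0 with the median subtracted, and 0 of 28 through lean control. No paired analysis was possible because the tables hold 1 value per group, and for the same reason no animal could be left out.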
